A study of Mus musculus with 4 samples.

Results

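The p53 gene Trp53 and 9 of its stress targets were followed in granulosa cells (GCs) of the mouse ovary, which nurse the oocyte inside the follicle. The genes were chosen by name as Trp53 and targets outside the BCL2 and CDK inhibitor families, namely Mdm2, Gdf15, Ccng1, Sesn1, Zmat3, Trp53inp1, Phlda3, Tnfrsf10b and Perp. All 10 were found among the 25239 listed genes. They and the other gene lists used below were chosen with earlier results of these data known. Their counts beside all tested genes are therefore a description and not a test. RNA was sequenced from 4 libraries, 2 of GCs treated with HDACi 4b and 2 of control GCs, all from wild-type C57BL/6 mice at postnatal day 24 and all cultured in vitro. HDACi 4b inhibits 2 histone deacetylases, HDAC1 and HDAC3, and the effects of these enzymes cannot be told apart here. The dose and length of treatment of the sequenced cells are not given by the sample labels. The notes on all 4 samples also describe tamoxifen given to mice with a floxed Hdac3 allele and RNA from frozen ovaries, which goes against the titles and the design, and the titles and design were followed. The comparison asked which transcripts change when HDAC1 and HDAC3 are inhibited in GCs. Whether replicate libraries stem from different cultures or animals is not in the labels, and the p-values therefore reflect library-to-library spread that may be technical.

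The p53 protein is a transcription factor that is kept scarce in unstressed cells because MDM2, itself a p53 target, marks it for breakdown. Damage or stress slows this breakdown, and p53 then binds its target genes and slows division, repairs damage or starts cell death. Much of this control acts on the protein, through phosphorylation, acetylation and breakdown, and RNA levels do not report it. Histone deacetylases, among them HDAC1 and the NAD-dependent enzyme SIRT1, can remove acetyl groups from p53. In follicles, GC death is the usual course of atresia.

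The promoters are shown first because the members differed in whether they hold a p53 motif there. Windows of 300 bases, from 250 before to 50 after an annotated start, were taken from RefSeq on GRCm38.p6 for 6 of the 10 members, which gave 8 windows. Zmat3, Trp53inp1, Tnfrsf10b and Perp had no entry. The p53 decamer is the motif of 10 letters that p53 binds in pairs, and a match reads the same way on either strand. It was found in 4 windows, belonging to Trp53, Mdm2, Ccng1 and Sesn1, and in 8.36% of all 32851 windows of this length. Each of these 4 windows held 1 match, so none held a pair of exact matches. The match began at -75 from the start of Trp53, at -186 for Mdm2, at -185 for Ccng1 and at -173 for the downstream start of Sesn1. Neither window of Gdf15 and not the window of Phlda3 held it. The windows were chr11:69580109-69580408 on the plus strand for Trp53, chr10:117710709-117711008 on the minus strand for Mdm2, chr11:40755237-40755536 on the minus strand for Ccng1, chr10:41887189-41887488 on the plus strand for Sesn1 and chr8:70632046-70632345 on the minus strand for Gdf15. They are given 5′ to 3′ in lower case with the p53 decamer in capitals, and the first window of Gdf15 stands with them because that gene changed most.
Trp53: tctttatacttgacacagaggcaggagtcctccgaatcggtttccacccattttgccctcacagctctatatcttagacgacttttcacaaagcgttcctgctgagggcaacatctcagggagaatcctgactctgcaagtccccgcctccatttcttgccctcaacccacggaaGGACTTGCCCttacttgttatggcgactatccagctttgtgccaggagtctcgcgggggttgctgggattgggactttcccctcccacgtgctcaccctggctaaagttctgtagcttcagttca
Mdm2: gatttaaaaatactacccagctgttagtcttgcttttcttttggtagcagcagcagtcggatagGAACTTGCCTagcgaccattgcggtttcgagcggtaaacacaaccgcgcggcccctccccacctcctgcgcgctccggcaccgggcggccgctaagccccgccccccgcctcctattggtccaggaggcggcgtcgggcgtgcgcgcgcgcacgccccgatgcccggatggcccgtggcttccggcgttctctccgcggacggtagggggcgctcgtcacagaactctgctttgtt
Ccng1: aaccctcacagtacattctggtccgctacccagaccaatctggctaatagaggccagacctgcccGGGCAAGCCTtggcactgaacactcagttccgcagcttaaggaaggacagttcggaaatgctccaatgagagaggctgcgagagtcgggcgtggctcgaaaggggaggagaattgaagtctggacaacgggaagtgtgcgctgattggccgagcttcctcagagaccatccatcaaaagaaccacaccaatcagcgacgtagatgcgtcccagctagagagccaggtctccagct
Sesn1: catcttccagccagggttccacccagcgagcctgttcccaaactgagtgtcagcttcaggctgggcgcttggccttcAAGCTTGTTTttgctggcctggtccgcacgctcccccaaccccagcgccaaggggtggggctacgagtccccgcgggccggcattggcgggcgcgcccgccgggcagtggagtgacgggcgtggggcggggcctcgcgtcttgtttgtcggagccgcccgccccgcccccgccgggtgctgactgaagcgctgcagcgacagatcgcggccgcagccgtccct
Gdf15: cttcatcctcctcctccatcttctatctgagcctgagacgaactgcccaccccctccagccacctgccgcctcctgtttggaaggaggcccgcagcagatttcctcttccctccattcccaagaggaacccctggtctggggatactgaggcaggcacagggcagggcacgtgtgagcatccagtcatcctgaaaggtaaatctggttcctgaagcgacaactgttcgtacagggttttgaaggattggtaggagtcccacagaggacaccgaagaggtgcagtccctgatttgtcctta
The GC box GGGCGG, the motif of SP1, was also searched on both strands. It was present in windows of Mdm2, Sesn1 and Phlda3, and in 35.7% of all windows. The CCAAT box was present in windows of Trp53, Mdm2, Gdf15, Ccng1 and Sesn1, and in 37.4% of all windows. A match is a description of the letters and does not show that a factor binds there, and this window leaves out introns, where several known p53 sites lie.

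Values are FPKM, the reads of a gene scaled to its exon length and to the library total. The length covers all annotated exons of a gene and not the transcripts in use, so levels of different genes can be compared only roughly. Low values moved in steps of whole reads, which gave totals of 15951875 to 17665107 reads per library, and 1 read was worth 0.0283 to 0.0313 FPKM at a length of 2 kb. Whole reads were recovered for all 10 members in all 4 libraries. Testing was limited to the 12054 genes that averaged 1 FPKM or more, all 10 members among them, and was done with limma on log2(FPKM + 1). A gene was called at an adjusted p below 0.05, and 60.5% of tested genes were called, 22.4% as higher and 38.1% as lower in HDACi 4b-treated cells. All tested genes together had a median difference of -0.15 (log2), and scaling by median ratios moved genes by a median of 0.15 and called 56.7% of genes, 29.3% as higher and 27.4% as lower. Of 9 tested GC markers 4 fell and 2 rose. The estrogen receptor gene Esr2 had 1.48 and 1.601 FPKM in treated libraries, against 25.7 and 19.3 FPKM in control libraries, Foxl2 fell by 1.33, Inha by 1.29 and Inhba by 0.85, while Fshr rose by 0.69 and Nr5a2 by 0.58. The aromatase gene Cyp19a1 stayed below 1 FPKM in every library. Among genes listed as theca markers Cyp17a1 was at 0.0285 FPKM or less, and both tested ones fell, Lhcgr by 1.06 and Ptch1 by 1.02. Lhcgr encodes the receptor of luteinizing hormone, to which GCs also respond, so it does not mark theca alone. Among leukocyte markers Ptprc was at 0.0835 FPKM or less, Lyz2 fell by 1.87 and Cd68 rose by 1.79. Summed levels of 8 stromal and contractile markers were lower in treated libraries, at 33.8 and 57.4 FPKM, against 186 and 292 FPKM in control libraries, mostly from Acta2. The part of these markers in the results was not tested. In bulk RNA, fewer cells of a type and less RNA per cell cannot be told apart.

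Trp53 transcripts fell in treated GCs while most of the target genes did not follow. Of the 10 members 6 rose, 2 fell and 2 were not called, against a background of 60.5% called, 22.4% as higher and 38.1% as lower. The 6 that rose were Gdf15, Tnfrsf10b, Perp, Trp53inp1, Ccng1 and Zmat3, and the 2 that fell were Trp53 itself and Sesn1. Called rises of at least 1 on the log2 scale were seen for 3 members, with a background of 7.54%, and no member had a called fall of that size, with a background of 6.7%. Gdf15, among those 3, averaged 0.911 FPKM in control cells and passed the filter only through its treated libraries. The groups did not overlap for 9 members, 7 with the treated libraries above and 2 with them below, but this held for 83.1% of all tested genes, 31.1% above and 52% below. The median difference of the 10 members was 0.36, against -0.15 over all tested genes, and it was 0.51, against -0.0041, under median-ratio scaling. The smallest p of an exact permutation test on 2 against 2 libraries is 0.333, so the calls depend on variance information that limma borrows from other genes.

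**Figure D1:**
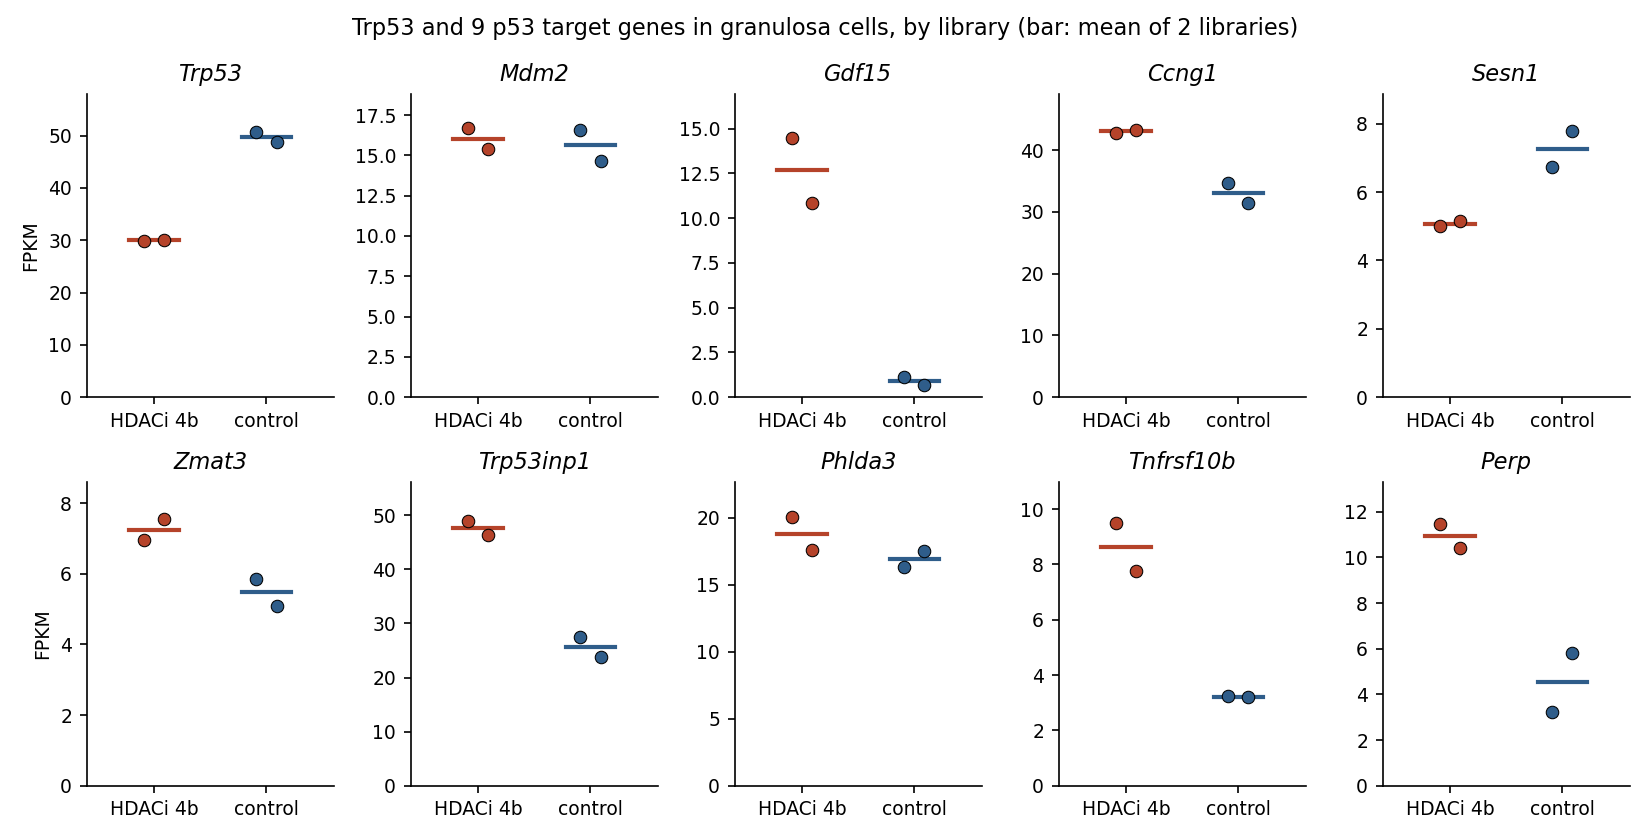
FPKM of each of the 10 genes in 2 HDACi 4b-treated libraries (left, red) and 2 control libraries (right, blue), each panel on its own axis from 0, with points for libraries and a bar for the mean. The treated points lie below the control points for Trp53 and Sesn1, among them for Mdm2, and above them for the other 7 genes, with the nearest pair of Phlda3 at 17.57 and 17.50 FPKM.

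Trp53, which encodes p53, had 29.8 and 30.1 FPKM in HDACi 4b-treated libraries, against 50.8 and 48.9 FPKM in control libraries. Treated cells thus held 60.1% of the control level, and the spread within each group was small beside this gap. The recovered reads were 1957 and 1942 in treated libraries and 3378 and 3493 in control libraries. The difference was -0.72 ± 0.062 (SE, adjusted p = 0.000604 in limma), and it was called under all 9 alternatives, with -0.55 under median-ratio scaling as the smallest. No exon base of Trp53 was shared with another annotated gene. A processed pseudogene, Trp53-ps, is annotated elsewhere in the genome, and the sources used here do not say how reads that fit both copies were counted.

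Mdm2, the ubiquitin ligase that marks p53 for breakdown and is itself switched on by p53, did not follow Trp53. It had 16.7 and 15.4 FPKM in treated libraries, against 16.6 and 14.7 FPKM in control libraries. The groups overlapped, and the spread within each was wider than the distance between their means. The difference was 0.04 ± 0.088 with a 95% interval of -0.18 to 0.26 (adjusted p = 0.734), and changes within these bounds could not be told from none. Under median-ratio scaling the difference was 0.19 (adjusted p = 0.121), and over the 9 alternatives adjusted p ran from 0.121 to 0.90. In FPKM, the Mdm2 level was 0.56 and 0.511 of that of Trp53 in treated libraries and 0.326 and 0.30 in control libraries.

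Ccng1 encodes cyclin G1, which brings a phosphatase to MDM2 and helps to restrain p53. It had 42.8 and 43.3 FPKM in treated libraries, against 34.7 and 31.5 FPKM in control libraries. Both treated libraries were above both control libraries, and the rise was 1.30-fold, or 0.37 ± 0.073 on the log2 scale (adjusted p = 0.00819). The call was lost without HDACi 4b replicate 1 (adjusted p = 0.0594) and without HDACi 4b replicate 2 (adjusted p = 0.0612), while the difference stayed at 0.38 and 0.36. Zmat3 encodes a zinc finger protein that binds RNA and changes the stability and splicing of target transcripts. It had 6.95 and 7.55 FPKM in treated libraries, against 5.86 and 5.09 FPKM in control libraries. Here too the groups did not overlap, with a 1.32-fold rise of 0.35 ± 0.094 (adjusted p = 0.0238). This call held in the fewest alternatives of the 8. It was lost without HDACi 4b replicate 1 (adjusted p = 0.0738), HDACi 4b replicate 2 (0.131) or control replicate 2 (0.0816), and when no filter on low values was used (0.0583), so it held in 5 of 9 alternatives.

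Gdf15 changed most among the members. It encodes a secreted factor of the TGF-beta family that cells release under stress and that acts on a receptor in the brainstem. Gdf15 had 14.5 and 10.9 FPKM in treated libraries, against 1.15 and 0.672 FPKM in control libraries. These values came from 434 and 321 reads in treated libraries and from 35 and 22 reads in control libraries. Every treated value was many times any control value. The mean rose 13.9-fold, to 12.7 ± 2.54 FPKM in treated cells, against 0.911 ± 0.337 FPKM in control cells (SD, n = 2 per group). The difference on log2(FPKM + 1), a scale that shrinks changes of a gene this low in controls, was 2.84 ± 0.18 (adjusted p = 0.000402 in limma), and limma-voom on recovered reads gave 3.82. It ranked 71 of 12054 genes when ordered from the greatest rise. This rank is a description only, since Gdf15 passed the filter of 1 FPKM through its treated libraries alone. It was called under all 9 alternatives.

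Sesn1 went the other way. It encodes a sestrin, a stress protein that restrains the growth kinase complex mTORC1. Sesn1 had 5.002 and 5.15 FPKM in treated libraries, against 6.72 and 7.79 FPKM in control libraries. The groups did not overlap, and treated cells held 69.9% of the control level. The difference was -0.44 ± 0.093 (adjusted p = 0.0105) and it was -0.30 under median-ratio scaling (adjusted p = 0.0408). The call was lost without HDACi 4b replicate 1 (adjusted p = 0.0718) and without HDACi 4b replicate 2 (adjusted p = 0.0571). Of the other sestrins, Sesn3 averaged 5.75 FPKM in treated cells and 7.24 FPKM in control cells and fell (adjusted p = 0.0245), but not under median-ratio scaling (adjusted p = 0.172). Sesn2 averaged 7.81 FPKM in treated cells and 10.03 FPKM in control cells and was not called (adjusted p = 0.116). Sesn2 and Sesn3 were named after their values were seen.

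Trp53inp1 encodes a stress protein that promotes the activating phosphorylation of p53 and takes part in autophagy. It had 48.9 and 46.3 FPKM in treated libraries, against 27.5 and 23.8 FPKM in control libraries. Both treated libraries lay far above both control libraries, a 1.86-fold rise of 0.87 ± 0.088 (adjusted p = 0.000969) that was called under all 9 alternatives. Phlda3 encodes a small lipid-binding protein that competes with the survival kinase AKT at the membrane. It had 20.1 and 17.6 FPKM in treated libraries, against 16.3 and 17.5 FPKM in control libraries. Its nearest libraries almost met, and the difference of 0.14 ± 0.088 was not called (95% interval -0.08 to 0.36, adjusted p = 0.211). Under median-ratio scaling it was 0.30 and was called (adjusted p = 0.0416), so whether Phlda3 counts as higher depended on that scaling. Over the 9 alternatives its adjusted p reached 0.695.

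Tnfrsf10b encodes the death receptor for the ligand TRAIL, at the head of the extrinsic pathway of apoptosis. It had 9.49 and 7.77 FPKM in treated libraries, against 3.23 and 3.21 FPKM in control libraries. The control libraries were nearly equal, and both treated libraries lay above them by more than the spread within either group. The rise was 2.68-fold, or 1.19 ± 0.11 on the log2 scale (adjusted p = 0.000717), and it was called under all 9 alternatives. The ligand gene Tnfsf10 was close to silent, with 1 and 1 reads in treated libraries and 2 and 1 reads in control libraries. Among 7 tested partners of death receptors 2 were higher and 3 lower, against 22.4% and 38.1% of all tested genes. The adaptor Fadd had 1.17 and 1.22 FPKM in treated libraries, against 3.01 and 2.78 FPKM in control libraries, a difference of -0.83 ± 0.10, and the initiator protease Casp8 differed by -0.78 ± 0.12. Cflar, an inhibitor of the same step, differed by -0.81 ± 0.11. Bid, which carries the signal to mitochondria, rose by 0.82, and the TNF receptor Tnfrsf1a rose 1.39-fold. The receptor was higher in the same libraries in which its adaptor, the initiator protease and the inhibitor Cflar were lower.

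Perp encodes a membrane protein that p53 uses in apoptosis and that epithelia need for desmosomes, the junctions that tie cells together. It had 11.5 and 10.4 FPKM in treated libraries, against 3.24 and 5.83 FPKM in control libraries. The groups did not overlap, but the control libraries, with 104 and 201 reads, stood further apart relative to their mean than those of any other member (4.54 ± 1.83 FPKM, SD, n = 2). The rise was 2.41-fold, or 1.15 ± 0.25 (adjusted p = 0.0161). The call was lost without HDACi 4b replicate 1 (adjusted p = 0.0804) and without HDACi 4b replicate 2 (adjusted p = 0.0604), and the difference ran from 0.80 without control replicate 1 to 1.49 without control replicate 2. Epithelial and desmosome markers moved in the same libraries. Of 10 tested 7 were higher and 1 lower, against 22.4% and 38.1% of all tested genes. Cdh1, Epcam, Dsg2 and Krt19, all among the higher ones, averaged 0.227, 0.399, 0.77 and 0.971 FPKM in control cells. They passed the filter only through their treated libraries, so this count leans toward rises. The cell surface marker Epcam had 3.96 and 4.76 FPKM in treated libraries, against 0.298 and 0.499 FPKM in control libraries. The keratin Krt18 rose 2.99-fold and Cdh1, the epithelial cadherin, had 1.87 and 1.96 FPKM in treated libraries, against 0.306 and 0.149 FPKM in control libraries. The desmosome gene Pkp2 fell by 1.03, and the keratin Krt7 was near 0, at 0.0262 and 0.0267 FPKM in treated libraries and 0.302 and 0.489 FPKM in control libraries. The 11 markers in the table summed to 153 and 181 FPKM in treated and to 103 and 106 FPKM in control libraries, and their part in the Perp result was not tested.

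**Figure D2:**
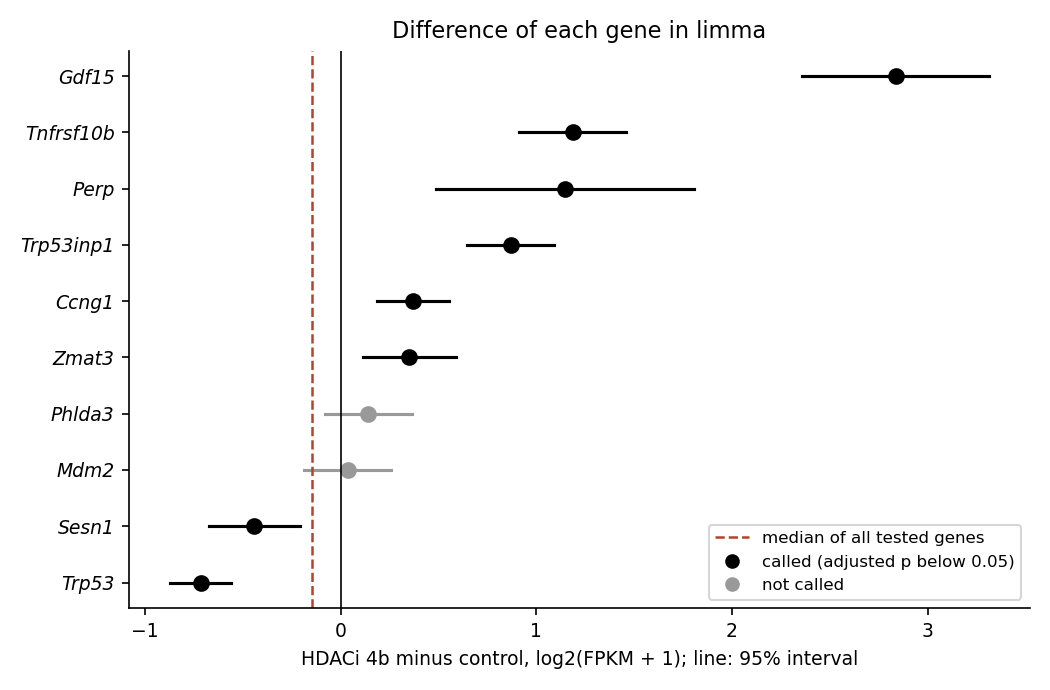
Difference of each gene between HDACi 4b-treated and control cells on the log2(FPKM + 1) scale, with its 95% interval from limma (black, called; grey, not called), and a dashed line at the median of all tested genes, -0.15. Gdf15 stands at 2.84 and Trp53 at -0.72, and the intervals of Mdm2 and Phlda3 include 0.

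The order of levels changed at the top. In treated cells Trp53inp1 was highest at 47.6 FPKM, followed by Ccng1 at 43.1 and Trp53 at 29.97 FPKM. In control cells Trp53 was highest at 49.8 FPKM, followed by Ccng1 at 33.1 and Trp53inp1 at 25.7 FPKM. Phlda3 and Mdm2 came next in both groups, and in control cells their libraries overlapped. Gdf15 was sixth in treated cells, where its libraries overlapped those of Perp, and it was last in control cells. Zmat3 and Perp overlapped in control cells, and Sesn1 was last in treated cells. The other neighbors in either order did not overlap, over 2 libraries each. Both orders, and the size of the ratios below, rest on the exon lengths used. Relative to Trp53, the level of Trp53inp1 was 1.64 and 1.54 in treated libraries, against 0.541 and 0.488 in control libraries. The same ratio for Ccng1 was 1.43 and 1.44 in treated libraries, against 0.683 and 0.645 in control libraries. For Sesn1, which fell along with Trp53, it was 0.168 and 0.171 in treated libraries, against 0.132 and 0.159 in control libraries.

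Other p53 targets, taken from a list of 31 genes outside the chosen ones, also rose more often than they fell. Of 30 tested, 17 rose, 2 fell and 11 were not called, against 22.4% higher and 38.1% lower among all tested genes. Their median was 0.29, against -0.15 over all tested genes. Under median-ratio scaling 20 rose and 2 fell, against 29.3% and 27.4%. Ddit4, an inhibitor of mTORC1, had 94.3 and 103.6 FPKM in treated libraries, against 18.7 and 15.9 FPKM in control libraries, and rose by 2.45 ± 0.099. Btg2, an antiproliferative gene, had 87.9 and 67.1 FPKM in treated libraries, against 18.7 and 14.3 FPKM in control libraries. Both genes answer to several stress signals besides p53. Dram1, which takes part in autophagy, rose 5.09-fold, and the detoxifying hydrolase Ephx1 rose 2.92-fold. The growth suppressor Rprm had 1.35 and 0.945 FPKM in treated libraries, against 1.79 and 3.22 FPKM in control libraries, and was not called (adjusted p = 0.0523 in limma). The 2 that fell were the DNA damage sensor Xpc, by 0.65, and Trp53i11, by 0.64, and they were named after their values were seen. Targets of the families left out of the choice moved both ways as well. The CDK inhibitor Cdkn1a rose by 1.53 and the pro-apoptotic Bax by 0.96, while the pro-apoptotic Bbc3 fell by 0.75. Pmaip1 lay under the filter, at 1.38 and 0.734 FPKM in treated libraries and at 0.115 and 0.0642 FPKM in control libraries.

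Among genes that act on p53 itself more fell than rose, which was also so for all tested genes under the main settings. Of 20 tested regulators and cofactors 1 rose, 10 fell and 9 were not called, against 22.4% higher and 38.1% lower among all tested genes, with a median of -0.26, and under median-ratio scaling 3 rose and 7 fell, against 29.3% and 27.4%. The 1 that rose was Ppm1d, a phosphatase that p53 induces and that turns the damage response off again. It had 11.4 and 12.2 FPKM in treated libraries, against 6.15 and 6.33 FPKM in control libraries, a difference of 0.82 ± 0.072. Sirt1, the NAD-dependent deacetylase of p53, had 2.49 and 2.78 FPKM in treated libraries, against 7.10 and 7.30 FPKM in control libraries, a difference of -1.18 ± 0.086. Crebbp, an acetyltransferase of p53, fell by 0.81 and Trp53bp2, which steers p53 toward pro-apoptotic targets, fell by 0.85. The checkpoint kinase Chek1 had 1.57 and 1.54 FPKM in treated libraries, against 5.87 and 2.88 FPKM in control libraries, so that 1 control library carried much of its difference of -1.01 ± 0.29 (adjusted p = 0.0364, and up to 0.127 over the alternatives). Mdm4, the partner of MDM2, had 6.48 and 7.63 FPKM in treated libraries, against 9.39 and 9.03 FPKM in control libraries (adjusted p = 0.025), was not called under median-ratio scaling (adjusted p = 0.114) and was named after its values were seen. Crebbp, which adds acetyl groups to p53, and Sirt1, which removes them, were thus lower in the same libraries.

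**Figure D3:**
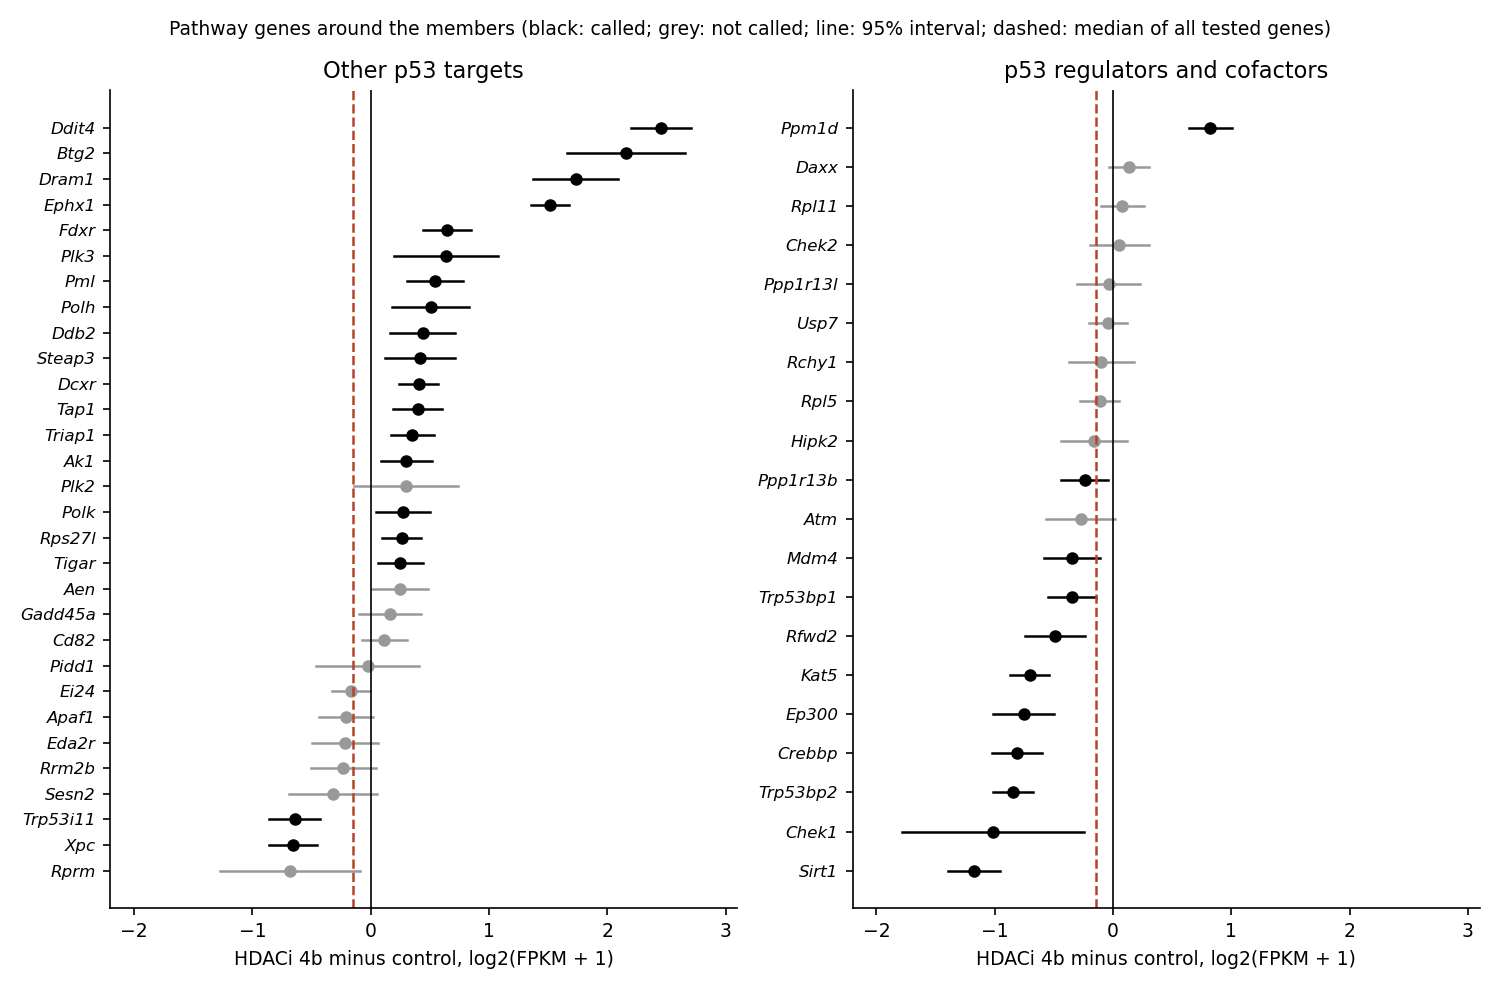
Differences of 30 other p53 targets (left) and 20 regulators and cofactors of p53 (right) between HDACi 4b-treated and control cells on the log2(FPKM + 1) scale, with 95% intervals from limma (black, called; grey, not called) and a dashed line at the median of all tested genes. The called targets lie mostly right of 0, from 0.25 for Tigar to 2.45 for Ddit4, and Ppm1d is the only called regulator right of 0.

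Relatives of the members moved in both directions, in shares near those of all tested genes. Of 10 tested paralogs 2 rose and 5 fell, against 22.4% and 38.1% of all tested genes, with a median of -0.30. Under median-ratio scaling 3 rose and 3 fell, against 29.3% and 27.4%. Ccng2 had 6.20 and 7.05 FPKM in treated libraries, against 12.3 and 14.2 FPKM in control libraries, and fell by 0.90, opposite to Ccng1. Zmat5 rose by 0.64, while Zmat2 fell by 0.43 and Zmat1 by 1.05. Tnfrsf22, a mouse decoy receptor for TRAIL, rose 5.41-fold. It averaged 0.749 FPKM in control cells and passed the filter only through its treated libraries. Zmat1 averaged 0.988 FPKM in treated cells and passed only through its control libraries. The p53 relatives lay under the filter. Trp63 had 5 and 1 reads in treated libraries, against 71 and 88 reads in control libraries, and Trp73 had 0 and 0 reads in treated libraries and 1 and 0 reads in control libraries. Phlda2 had 32 and 19 reads in treated libraries, against 1 and 2 reads in control libraries.

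The calls on Trp53, Gdf15, Trp53inp1 and Tnfrsf10b were the only 4 that held under all 9 alternatives. Ccng1, Sesn1, Zmat3 and Perp kept their direction in all of them but each lost its call without either treated library. Mdm2 was not called in any, and its sign turned when control replicate 2 or HDACi 4b replicate 1 was left out.

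**Figure D4:**
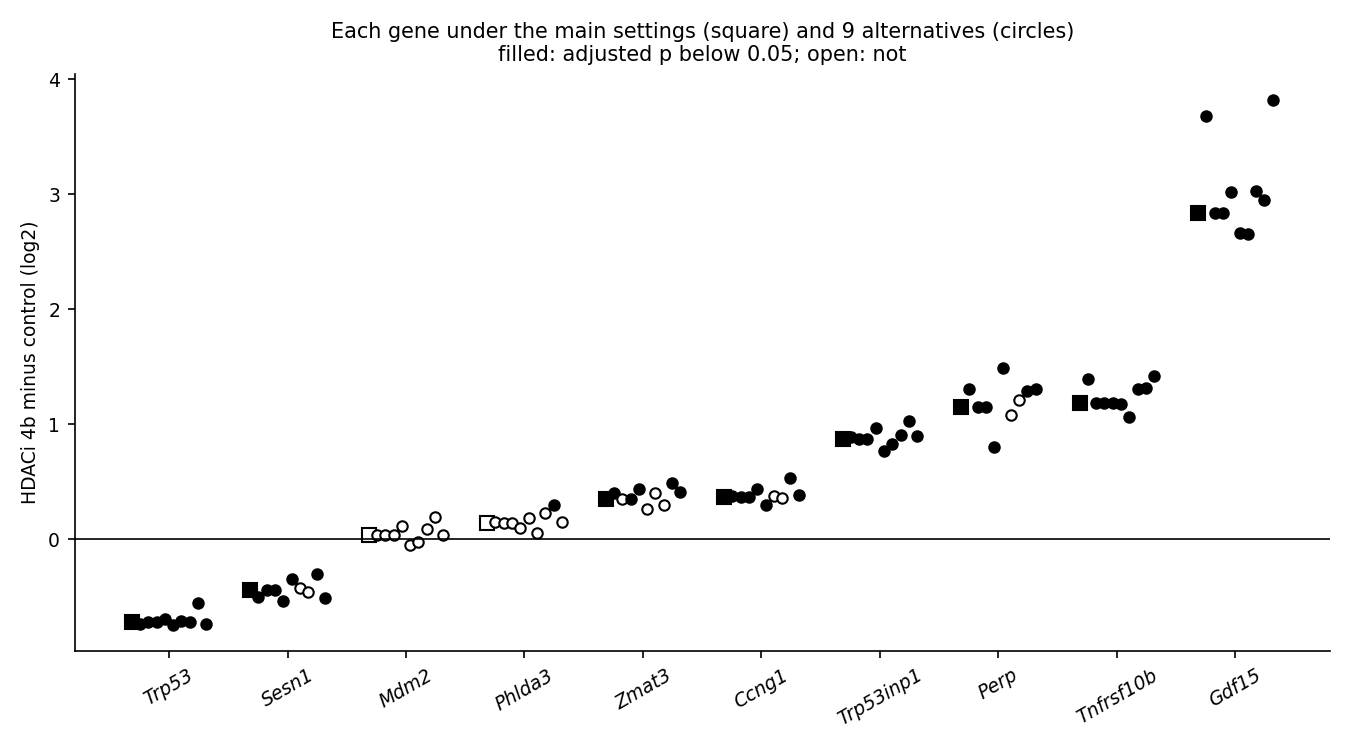
Log2 difference between HDACi 4b-treated and control cells for each gene with the main settings (square) and under 9 alternatives (circles), filled where adjusted p was below 0.05. The limma-voom and small-pseudocount values of Gdf15 stand apart at 3.82 and 3.68, and the values of Mdm2 lie on both sides of 0.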

How the data were processed

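Total RNA was sequenced after TruSeq library preparation. Bowtie 0.12.2 and build mm8 are listed in the submitters' processing notes, while the sources used here do not give the counter, annotation or strand setting. FPKM values of all 4 libraries were deposited together, with no unit named. The unit was settled from the values, since 90.5% of 23875 genes matched by symbol to GENCODE M21 gave whole reads (within 0.001) in all 4 libraries when multiplied by exon length and a total per library. These lengths belong to a later build than mm8, so positions are given only for the RefSeq windows on GRCm38.p6.

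Groups came from the sample titles. Genes were fitted with limma 3.58.1 in R 4.3.3 on log2(FPKM + 1) (trend and robust empirical Bayes, two-sided, Benjamini-Hochberg adjustment over 12054 genes). Fold changes are ratios of mean FPKM, and errors of log2 differences are SE. The fit was also run on simulated reads in which few genes changed, equally often up and down. That setting differs from these data, where 60.5% of tested genes were called, so it does not vouch for the calls. Alternatives were median-ratio scaling, limma-voom on the recovered reads (10 or more in 2 libraries), a smaller pseudocount (0.1), testing without the filter, a block for the replicate number, and omission of each library in turn. All members were named. From each other list only the 5 tested genes with the greatest differences, genes under the filter and cell type markers could be named, and exceptions are stated. The members and lists were chosen with earlier results of these data known. Figures were drawn with matplotlib 3.10.9.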

Additional observations from a re-analysis of the deposited data

How the results depend on the processing

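Of 90 values of single members under the 9 alternatives, 77 kept their direction and their side of the threshold, 10 lost their call, 1 gained one and 2 turned sign. The sign turned for Mdm2, whose values ran from -0.0455 (without control replicate 2) to 0.12, with -0.0199 without HDACi 4b replicate 1, when a library was left out and which was never called. Under median-ratio scaling the median difference of the 10 members was 0.51 in place of 0.36, and all tested genes moved by a median of 0.15. That scaling also raised the share of calls that were higher to 51.6% from 37.0%. When a library was left out, an arm had 1 library, whose spread is then assumed to be like that of the other group. The number of called genes then ran from 4571 to 6717, with 1775 to 2559 higher and 2796 to 4181 lower, members called higher from 3 to 6 and members called lower from 1 to 2. The lowest gene counts came without HDACi 4b replicate 1, and the lowest member counts without either treated library. Deviations of libraries with the same replicate number correlated at 0.088 across genes. With 2 libraries per group this value cannot show whether the numbers pair the libraries by culture or animal. With the replicate number as a block 7315 genes were called in place of 7297, with 6 members higher and 2 lower. Low read numbers limit the precision of Tnfsf10, Trp73, Trp63, Phlda2 and the control level of Gdf15.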

Other observations

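Several p53 targets, Gdf15, Tnfrsf10b and Sesn2 among them, are also known as targets of the integrated stress response, which acts through the transcription factor ATF4. A list of 9 genes of that response holds Sesn2 but not Gdf15 or Tnfrsf10b, which rose by 2.84 and 1.19. Among the 9, all tested, 6 fell and 1 rose (median -0.57), against 38.1% lower and 22.4% higher among all tested genes. Under median-ratio scaling 4 fell and 1 rose, against 27.4% and 29.3%. The part of this response in the member results was not tested. Atf4 had 90.5 and 84.3 FPKM in treated libraries, against 188.5 and 169.1 FPKM in control libraries, a difference of -1.02 ± 0.083. Chac1, a glutathione-degrading enzyme induced by ATF4, had 1.21 and 0.996 FPKM in treated libraries, against 12.6 and 7.44 FPKM in control libraries. Asns, the asparagine synthetase, fell by 0.79 and the serine synthesis gene Psat1 by 0.60. The 1 gene of this list that rose was the stress-induced factor Atf3 (adjusted p = 0.00371 in limma). It had 4.41 and 3.75 FPKM in treated libraries, against 2.23 and 2.10 FPKM in control libraries.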
